A study of Sus scrofa with 6 samples.

Results

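Regulatory T cells (Tregs) are the CD4+ T cells that hold back other immune cells, and 10 genes known for their identity or their suppressive work were looked up by symbol in the PBMC expression table. Of the 10 symbols, 6 were in the table (FOXP3, IKZF2, IL2RA, CTLA4, ICOS and IL10). They stood on 7 of its 11564 rows, because IL2RA had 2 loci. The symbols IKZF4, TNFRSF18 and LRRC32 had no row and were not analysed here. TIGIT had no row by symbol either, but a row without a symbol carried the identifier that a reference table of gene names gives to TIGIT, and it is described beside the members without being counted among them.

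RNA had been sequenced from PBMCs, the lymphocytes and monocytes of blood, of 6 Yorkshire pigs at 6 months of age. The labels gave 3 of them as WT and 3 as Leptin-overexpressing, each with an animal code of its own, and named no treatment. The study describes the transgene as the pig leptin coding sequence under the pig leptin promoter, with cloned animals made by nuclear transfer from antibiotic-selected fibroblasts and nontransgenic pigs as controls. Levels are FPKM, fragments scaled to transcript length and to the library total, so levels of different genes can be set side by side. The values hold no read counts, and the depth of each library is unknown. In a mixed cell sample, fewer Tregs and less RNA per Treg cannot be told apart. Nor can a member's RNA from Tregs be told apart from its RNA from other cells.

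The leptin gene itself went against the label in both libraries numbered 1. LEP, the transgene's product, was at 50.0 FPKM in WT replicate 1 and at 0 in Leptin-overexpressing replicate 1. In the other libraries it was at 0 and 0.118 FPKM under the WT label and at 18.3 and 39.3 FPKM under the other label. All groups below are those of the labels, and many results are also given without both libraries numbered 1. Markers of T cells were present, though they do not check how pure the PBMCs were. Of 22 T cell symbols listed, 19 were in the table and all 19 passed the filter on low values, with CD3E, a chain of the T cell receptor complex, at 213 to 372 FPKM. S100A8, a protein of neutrophils and monocytes, reached 699 FPKM in WT replicate 1 against 66.5 to 225.1 FPKM in the other libraries. The other neutrophil markers found were also highest in WT replicate 1. S100A9 was at 1031 FPKM against 93.2 to 370 FPKM, S100A12 at 1702 against 188 to 437 FPKM, and LTF at 25.6 against 2.48 to 9.92 FPKM. The part of neutrophils in that library was not tested.

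Treg biology runs along a short chain. FOXP3 is the transcription factor that fixes the Treg program, with the Ikaros family factor IKZF2 (Helios) beside it. IL2RA (CD25) is the chain that gives the interleukin-2 receptor its high affinity, and interleukin-2 keeps Tregs alive. CTLA4 strips CD80 and CD86 from antigen-presenting cells, ICOS is a costimulatory receptor, TIGIT is an inhibitory receptor, and IL10 is a suppressive cytokine that monocytes and other lymphocytes also make. Leptin is known to restrain Treg growth, and the study asked by staining and flow cytometry whether Tregs were fewer in these pigs. It reports a lower Treg level in spleen under the transgene. After profiling circulating immune cells by flow cytometry, it places the largest differences in the Tregs. It also reports that fewer T cells turned into Tregs under leptin in culture, where a supplementary legend names mouse cells. The libraries allow a different question, that of the members' RNA in blood, in which Tregs themselves are not counted.

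FOXP3 RNA was low in every library and did not part the labels. FOXP3 (ENSSSCG00000012300, chromosome X from 48151825 to 48170815, in coordinates as deposited) was at 1.98, 3.43 and 1.82 FPKM in WT replicates 1, 2 and 3. It was at 2.48, 1.37 and 2.83 FPKM in Leptin-overexpressing replicates 1, 2 and 3. The highest library carried the WT label and the lowest the Leptin-overexpressing label, and of the other 4, both Leptin-overexpressing libraries lay above both WT libraries. Group means were 2.41 ± 0.886 and 2.23 ± 0.762 FPKM (SD, n = 3 each). The difference in log2(FPKM + 1), here and below taken as Leptin-overexpressing minus WT, was -0.078 with a standard error of 0.24 (limma, adjusted p = 0.993). Its 95% interval ran from -0.64 to 0.49, that is from 0.641 to 1.40 times the WT value of FPKM + 1. Without WT replicate 2 the difference turned to 0.13, and without both libraries numbered 1 it was -0.23.

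IKZF2 had the most even WT values and the smallest unadjusted p of the members. IKZF2 (ENSSSCG00000016164, chromosome 15 from 127685829 to 127740305) was at 4.80, 4.48 and 4.24 FPKM in the WT libraries and at 3.54, 2.80 and 4.27 FPKM in the Leptin-overexpressing libraries. Only Leptin-overexpressing replicate 3 reached the WT range, and it passed the lowest WT library by a narrow margin. The difference in log2(FPKM + 1) was -0.29 with a standard error of 0.16 (limma, unadjusted p = 0.113, adjusted p = 0.993). Its 95% interval, from -0.67 to 0.086, included 0. The difference was -0.26 without both libraries numbered 1 and -0.17 without Leptin-overexpressing replicate 2, and it stayed below 0 in all 13 alternative fits.

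The interleukin-2 receptor chain had a higher mean under the Leptin-overexpressing label, within the spread. The longer IL2RA locus (ENSSSCG00000022849, chromosome 10 from 71153908 to 71162738) was at 2.66, 1.65 and 3.69 FPKM in the WT libraries. Its values in the Leptin-overexpressing libraries were 2.28, 3.27 and 4.14 FPKM. WT replicate 2, which had the most FOXP3, had the least IL2RA. The difference was 0.22 with a standard error of 0.25 (limma, adjusted p = 0.993), with a 95% interval from -0.36 to 0.80. It was 0.0055 without WT replicate 2, 0.067 without Leptin-overexpressing replicate 3, 0.42 without WT replicate 3, 0.39 without Leptin-overexpressing replicate 1 and 0.41 without both libraries numbered 1. The second IL2RA locus (ENSSSCG00000031058, chromosome 10 from 71064470 to 71064719) spans 250 bp and was at 0.700, 0.686 and 2.66 FPKM under the WT label and at 1.45, 0.805 and 4.30 FPKM under the Leptin-overexpressing label. Both loci were highest in Leptin-overexpressing replicate 3 and lowest in WT replicate 2. How reads were shared between the loci is not given, so neither is taken as the gene's full level.

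CTLA4 was the least abundant member and did not meet the filter for testing, which asked that 3 or more libraries hold 1 FPKM or more. CTLA4 (ENSSSCG00000016122, chromosome 15 from 118627514 to 118633798) was at 1.52, 1.19 and 0.771 FPKM in the WT libraries and at 0.983, 0.412 and 0.998 FPKM in the Leptin-overexpressing libraries. WT replicate 3 lay below 2 of the Leptin-overexpressing libraries, so the labels overlapped. In the fit without the filter the difference was -0.27 with a standard error of 0.21 (limma, adjusted p = 0.991). Leptin-overexpressing replicate 2, at 0.412 FPKM, was the lowest library, and no difference without it is given for this fit. The log2(FPKM + 1) scale shrinks changes at such levels, and the ratio of the mean FPKM values was 0.688.

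ICOS was the most abundant member and had the smallest difference in log2(FPKM + 1) of the members. ICOS (ENSSSCG00000025042, chromosome 15 from 118697549 to 118717532, neighbouring CTLA4) was at 8.05, 6.31 and 8.42 FPKM under the WT label. It was at 9.47, 5.83 and 8.09 FPKM under the Leptin-overexpressing label, which thus held both the highest and the lowest library. The difference of 0.020 (standard error 0.20, limma, adjusted p = 0.998) had a 95% interval from -0.44 to 0.48 and turned to -0.040 with median-of-ratios scaling, a scaling that moved the median of all genes down as well, from 0.059 to 0.0022.

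The row matched to TIGIT varied more than ICOS. It (ENSSSCG00000029267, chromosome 13 from 155180547 to 155197313) was at 3.25, 3.51 and 8.39 FPKM in the WT libraries and at 4.75, 1.63 and 4.05 FPKM in the Leptin-overexpressing libraries. WT replicate 3 stood well above the rest. The difference was -0.41 with a standard error of 0.38 (limma, adjusted p = 0.993), and it was -0.84 without both libraries numbered 1. Leaving out WT replicate 3 brought it to -0.045, and leaving out Leptin-overexpressing replicate 2 brought it to -0.068.

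IL10 values were tight under one label and loose under the other. IL10 (ENSSSCG00000015652, chromosome 9 from 73757703 to 73762351) was at 7.22, 4.92 and 4.12 FPKM in the WT libraries and at 4.69, 4.76 and 4.92 FPKM in the Leptin-overexpressing libraries. The 3 Leptin-overexpressing values fell inside the WT range. The difference was -0.12 with a standard error of 0.19 (limma, adjusted p = 0.993), and it turned to 0.072 without WT replicate 1, the library with the most IL10. That library was also the highest in the summed neutrophil markers, at 3458 FPKM against 358 to 1042 FPKM elsewhere. Its summed monocyte markers, 1100 FPKM, were below the 1254 FPKM of Leptin-overexpressing replicate 2, and of the 7 monocyte rows only CD14 was highest in it. The part of these cells in the IL10 value was not tested.

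**Figure D1:**
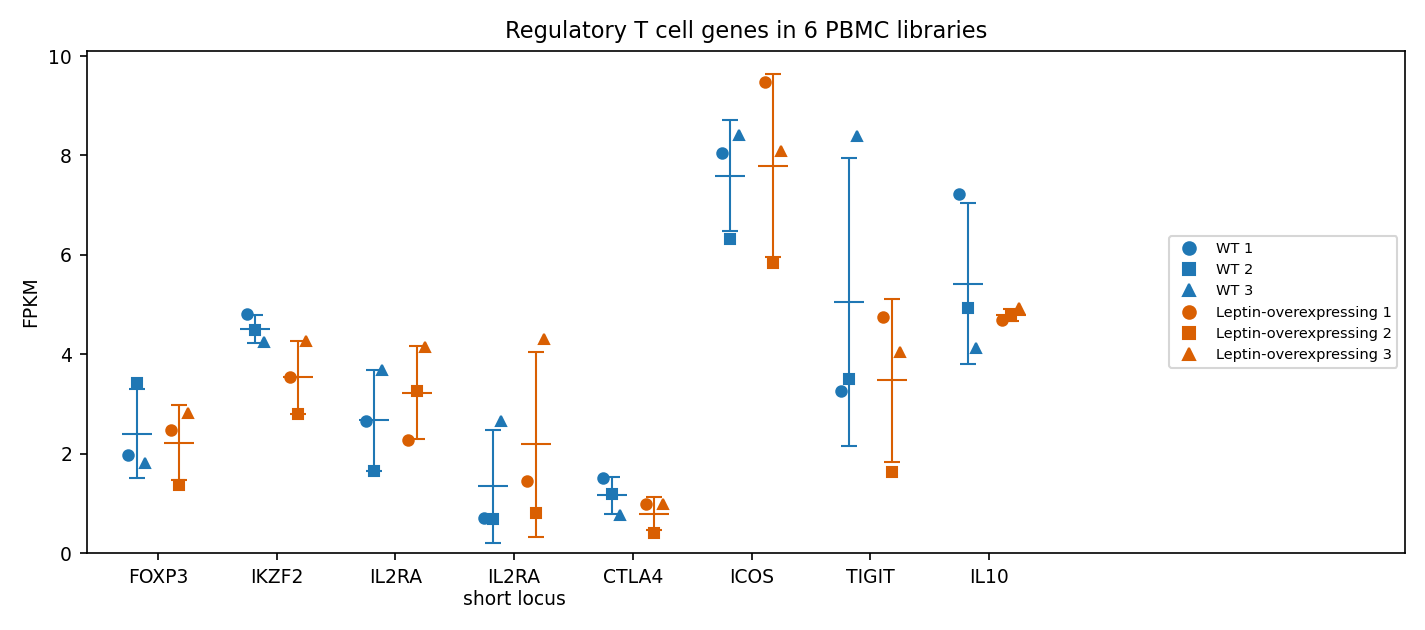
FPKM of the 7 member rows and of the row matched to TIGIT in each library. Points are libraries (shape gives the replicate number, colour the label), horizontal ticks are group means and bars are ± 1 SD (n = 3). The 2 colours overlap for every gene shown, and for IKZF2 only 1 of the 3 Leptin-overexpressing points, at 4.27 FPKM, reaches the WT range.

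The 6 member rows tested were FOXP3, IKZF2, ICOS, IL10 and both IL2RA loci, without CTLA4. None of them passed the adjusted p in limma. At an unadjusted p under 0.05 the count was also 0 of 6, against 3.18% of the 10735 genes tested, and with an adjusted p under 0.05 it was 0 of 6, against 0.00932%. No member kept its labels apart (0 of 6), against 7.63% of all genes tested. Beside such low shares over all genes, counts of 0 of 6 do not set the members apart from other genes, and they do not show that the labels were alike. Differences were above 0 for 3 rows (both IL2RA loci and ICOS) and below 0 for 3 (FOXP3, IKZF2 and IL10). Over all genes tested, 36.9% were below 0. The median of the 6 rows was -0.029, beside 0.059 over all genes tested. It was -0.078 when 1 FPKM was asked in every library, a filter that leaves out the shorter IL2RA locus. Standard errors of the members ran from 0.16 to 0.44, where the median over all genes tested was 0.18. The 6 libraries came from different animals by their codes, and the p-values measure the spread between these animals.

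**Figure D2:**
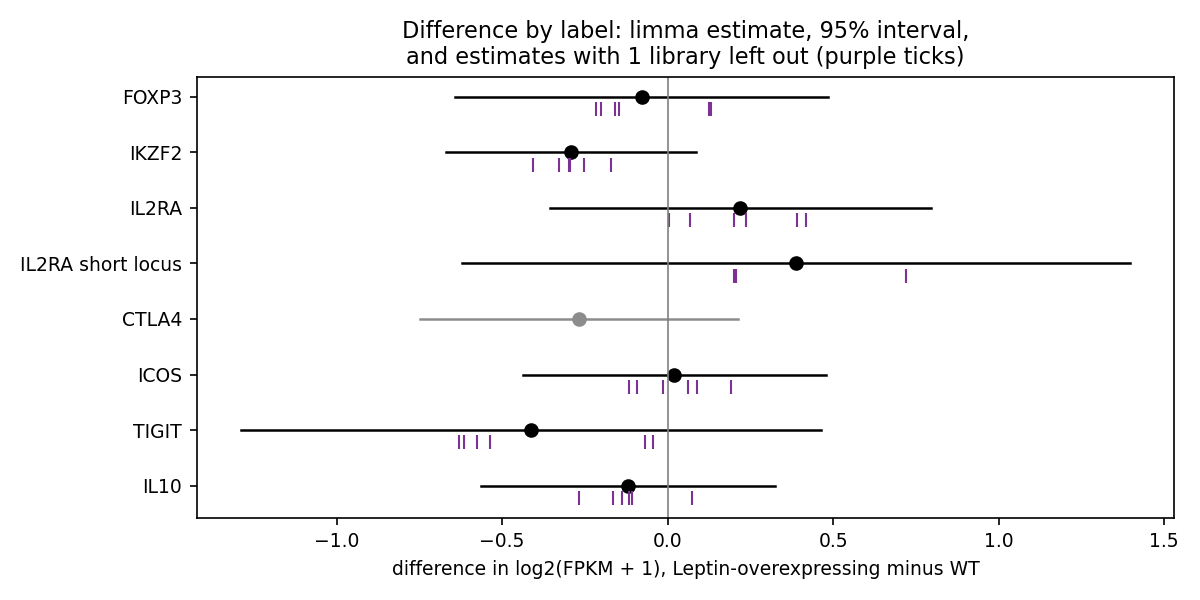
Difference in log2(FPKM + 1), Leptin-overexpressing minus WT, for each gene. Points are limma estimates, lines are 95% intervals and purple ticks are estimates with 1 library left out where the gene still passed the filter. CTLA4 is drawn in grey because it was under the filter and comes from the unfiltered fit. All 8 intervals include 0, and the ticks of FOXP3, ICOS and IL10 fall on both sides of it.

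The order of the levels by mean FPKM was ICOS (mean of 6 libraries 7.70 FPKM), IL10 (5.11), the TIGIT row (4.26), IKZF2 (4.02), the longer IL2RA locus (2.95), FOXP3 (2.32), the shorter IL2RA locus (1.77) and CTLA4 (0.979). ICOS lay at the 49.1 percentile of all rows by mean FPKM, FOXP3 at the 20.2 percentile and CTLA4 at the 6.42 percentile. Each of the 7 neighbouring pairs was compared within the 6 libraries by an exact sign-flip permutation test, two-sided. The pairs were set by the means of these same libraries, so the p-values only describe how steady the order was. The IL2RA loci are ranked apart, so the place of the whole gene is not given. ICOS exceeded IL10 in 6 of 6 libraries by 0.51 in log2(FPKM + 1) (exact p = 0.03125, the smallest the test can give, adjusted p = 0.219 over the 7 pairs). The other neighbours changed places in at least 1 library, with exact p from 0.125 to 0.906, so the middle of the order is not settled beyond the spread. The TIGIT row was above IKZF2 in 2 of 6 libraries, and its place in the order rests on the 8.39 FPKM of WT replicate 3.

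The members did not all rise and fall together across animals, though several shared their lowest library. Leptin-overexpressing replicate 2 was the lowest library for 5 of the 8 rows (FOXP3, IKZF2, CTLA4, ICOS and TIGIT). The same library was the lowest for 15 of 19 T cell genes, among them CD3D at 70.8 FPKM and CD3E at 213 FPKM. How many of all genes were lowest in this library was not counted, so these counts may not be particular to T cell genes. The longer IL2RA locus was not lowest there, at 3.27 FPKM in Leptin-overexpressing replicate 2. WT replicate 2 held the most FOXP3 with the least IL2RA and, at 21.9 FPKM, the least CD4. Across the 6 libraries, described without a test, Pearson's r on log2(FPKM + 1) was 0.87 between CTLA4 and IKZF2, 0.74 between both IL2RA loci, 0.60 between FOXP3 and CTLA4, and -0.49 between FOXP3 and the longer IL2RA locus. All values of a library share its cell mix and its scaling.

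Since T cell RNA differed between animals, each member was also read relative to it, as log2(FPKM + 1) of the member minus the mean of CD3D, CD3E, CD3G and CD247, the CD3 chains of the T cell receptor complex. Those chains were themselves within the spread, with CD3E at 275 ± 24.8 FPKM under the WT label and 308 ± 84.2 FPKM under the Leptin-overexpressing label (SD, n = 3 each). FOXP3 relative to CD3 was close in all 3 Leptin-overexpressing libraries, at -5.81, -5.80 and -5.78, and at -5.74, -5.05 and -6.00 in the WT libraries. The high WT value is that of replicate 2. The difference was -0.20 (exact permutation test, two-sided p = 0.7), and without WT replicate 2 it was 0.074. In plain FPKM, FOXP3 was at 2.67, 5.24 and 2.27 per 1000 FPKM of the summed CD3 chains in the WT libraries and at 2.76, 2.31 and 2.95 in the others. The Leptin-overexpressing values were less close there, and adding 1 to the FPKM shrinks changes at such levels.

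IKZF2 relative to CD3 did not overlap between the labels. It was at -4.78, -4.74 and -5.10 in the WT libraries and at -5.43, -5.11 and -5.32 in the Leptin-overexpressing libraries. The nearest values of the 2 labels, -5.10 and -5.11, came from WT replicate 3 and Leptin-overexpressing replicate 2. The difference of -0.41 had an exact permutation p of 0.1, the smallest that 3 against 3 libraries can give, and 0.7 after adjustment over the 7 member rows. Without both libraries numbered 1 the difference was -0.30 (exact p = 0.333, the smallest for 2 against 2). Among all genes tested, 5.52% were lower without overlap on this scale and 0.503% were higher (6.03% in either direction), and the means of all 4 CD3 chains were themselves higher under the Leptin-overexpressing label. Of the 7 member rows, IKZF2 was the 1 that did not overlap. Per 1000 FPKM of the summed CD3 chains it was at 6.47, 6.86 and 5.29 against 3.93, 4.72 and 4.46, where 6.25% of all genes tested were lower without overlap. CTLA4 relative to CD3 differed by -0.39 (exact p = 0.3), IL10 by -0.24 (exact p = 0.6), ICOS by -0.10 (exact p = 0.5) and the longer IL2RA locus by 0.098 (exact p = 0.9), which became 0.37 without both libraries numbered 1. The shorter IL2RA locus differed by 0.27 (exact p = 0.5) and the TIGIT row by -0.53 (exact p = 0.2). Relative to CD4 they differed by 0.14 (exact p = 1) and -0.66 (exact p = 0.3). The TIGIT difference relative to CD3 was -0.25 without WT replicate 3 and -0.87 without both libraries numbered 1. Relative to CD4 it was -1.28 without both libraries numbered 1, an alternative chosen after seeing the data. Relative to CD3 and with 1 library left out, CTLA4 reached -0.60 (without WT replicate 3). IL10 ran from -0.47 (without WT replicate 3) and -0.45 (without Leptin-overexpressing replicate 2) to -0.043 (without WT replicate 1). ICOS ran from -0.16 (without Leptin-overexpressing replicate 1) to -0.0066 (without Leptin-overexpressing replicate 3). With 0.1 in place of 1 added to the FPKM, CTLA4 relative to CD3 differed by -0.65.

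A ratio to CD4, the helper T cell coreceptor, comes nearer to the FOXP3 to CD4 protein ratio that the study measured in spleen. CD4 was at 38.6, 21.9 and 26.0 FPKM in the WT libraries and at 34.8, 27.3 and 39.6 FPKM in the Leptin-overexpressing libraries. Per 100 FPKM of CD4, FOXP3 was at 5.12, 15.7 and 6.98 under the WT label and at 7.12, 5.01 and 7.14 under the Leptin-overexpressing label. WT replicate 2 was again far above the others, which spanned 5.01 to 7.14 with the labels mixed. On the log scale FOXP3 relative to CD4 differed by -0.33 (exact permutation test, two-sided p = 0.7). That direction rests on 1 library, since it became 0.048 without WT replicate 2, and it was -0.68 without both libraries numbered 1.

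IKZF2 and CTLA4 had values relative to CD4 that did not overlap between the labels, lower in all 3 Leptin-overexpressing libraries, at the floor of the test and past no threshold. Per 100 FPKM of CD4, IKZF2 was at 12.4, 20.5 and 16.3 in the WT libraries and at 10.2, 10.3 and 10.8 in the Leptin-overexpressing libraries. CTLA4 was at 3.94, 5.44 and 2.96 in the WT libraries and at 2.82, 1.51 and 2.52 in the others, so its nearest libraries were 2.96 and 2.82. On the log scale the differences were -0.54 for IKZF2 and -0.52 for CTLA4. Each had an exact permutation p of 0.1, the smallest possible, and 0.35 after adjustment over the 7 rows. With 0.1 in place of 1 added to the FPKM, chosen after seeing the data, they were -0.62 for IKZF2 and -0.78 for CTLA4. Among all genes tested, 3.69% were lower relative to CD4 without overlap and 0.102% were higher (3.79% in either direction), against 2 of the 7 member rows. CTLA4 is not among the genes tested, and of the 6 member rows that are, IKZF2 was the 1 without overlap. For plain FPKM per CD4 FPKM the share lower was 4.21%. The CD4 mean was itself higher under the Leptin-overexpressing label, by 0.25 in log2(FPKM + 1), and its part in these counts was not tested. Without both libraries numbered 1, an alternative chosen after seeing the data, the differences were -0.71 for IKZF2 and -0.68 for CTLA4. The share of CD4+ cells that were Tregs was not measured by these values, nor was which cells the IKZF2 and CTLA4 RNA came from.

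**Figure D3:**
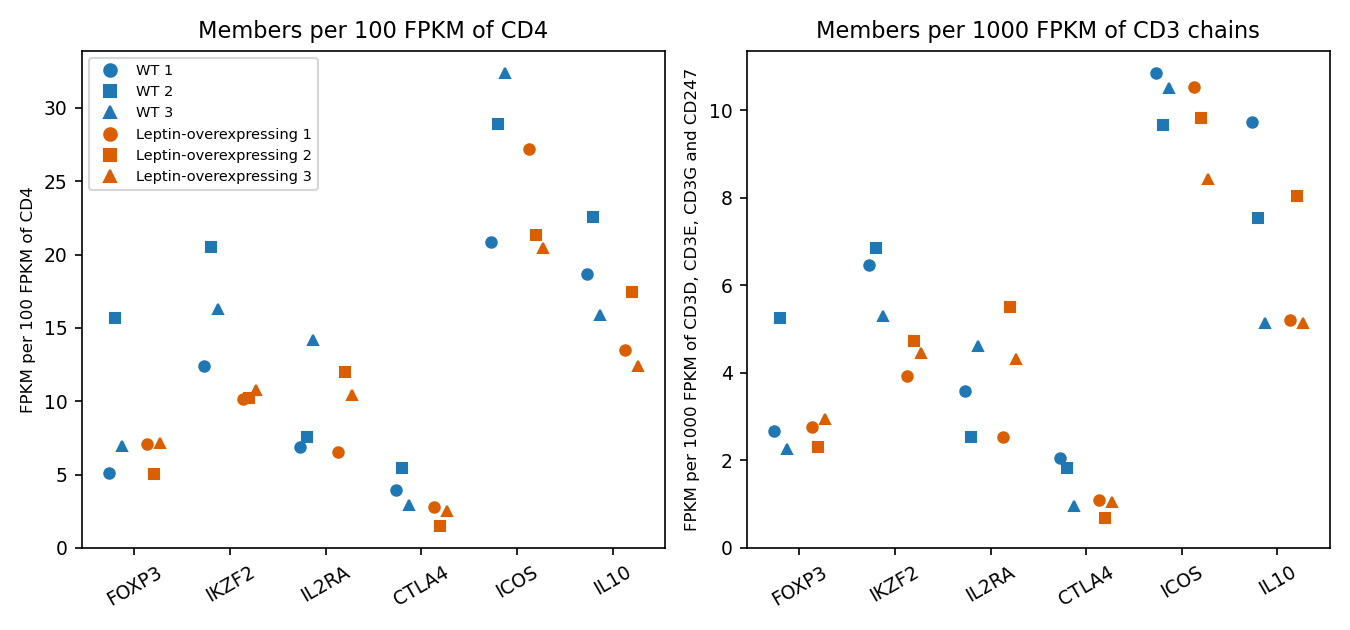
FPKM of 6 members per 100 FPKM of CD4 (left) and per 1000 FPKM of the summed CD3 chains (right), with 1 point per library, shape for the replicate number and colour for the label. IKZF2 is lower in all 3 Leptin-overexpressing libraries in both panels and CTLA4 in the left panel, while FOXP3 is set apart by WT replicate 2 alone, at 15.7 and 5.24.

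The partners of the members were taken next, as a list of 21 receptor chains and ligands of which 14 were in the table and 11 were tested. CD80, a ligand of CTLA4 and CD28 on antigen-presenting cells, was at 12.1, 16.0 and 16.4 FPKM in the WT libraries. It was at 10.1, 7.60 and 10.6 FPKM in the Leptin-overexpressing libraries, all of them below every WT library. The difference was -0.60 with a standard error of 0.18 (limma, unadjusted p = 0.011, adjusted p = 0.993), and -0.78 without both libraries numbered 1. CD86, the other ligand of CTLA4, was at 29.6, 30.3 and 26.8 FPKM in the WT libraries against 24.5, 25.7 and 22.2 FPKM (difference -0.25, limma, unadjusted p = 0.113), also without overlap. In the list, 1 of 11 genes was lower at an unadjusted p under 0.05, against 1.19% of all genes tested, and 3 of 11 were lower without overlap (CD80, CD86 and TGFBR2), against 2.63%. None passed the adjusted p.

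CD80 and CD86 are carried by monocytes and B cells. Summed over 6 found monocyte symbols, the level was 592 to 1100 FPKM under the WT label and 761 to 1254 FPKM under the other. The sum over 7 found B cell symbols was 426 to 781 and 607 to 758 FPKM in the same order, and no marker of either list was under 1 FPKM in every library. The part of these cells in the CD80 and CD86 values was not tested. CD28, the costimulatory receptor that competes with CTLA4, was at 5.60, 2.42 and 8.45 FPKM against 9.14, 2.88 and 7.31 FPKM, with overlap.

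The interleukin-2 side of the list varied within the labels. IL2, the cytokine itself, was under the filter, at 0 to 0.851 FPKM in the WT libraries and 0.251 to 1.02 FPKM in the others. The row matched to IL2RB was at 66.6, 35.1 and 46.9 FPKM against 43.1, 26.4 and 41.7 FPKM, with overlap. Its difference was -0.39 (limma, unadjusted p = 0.191). WT replicate 1 was its highest library and Leptin-overexpressing replicate 2 its lowest, and no difference without either is given. IL2RG, the common cytokine receptor chain, was at 432 to 545.4 FPKM over all 6 libraries. For the interleukin-10 and TGF-beta signals, IL10RA was at 124 to 159 FPKM and TGFB1 at 175 to 209.7 FPKM, both with overlap. The TGF-beta receptor chain TGFBR1 was at 12.5 to 16.98 FPKM with overlap, and the row matched to TGFBR2 was at 98.9, 103 and 109 FPKM in the WT libraries against 96.9, 85.9 and 98.7 FPKM. TGFB2 was under the filter, at 0.251 to 5.17 FPKM, and ITGAV, an integrin chain that takes part in freeing TGF-beta, was at 0.802 to 2.80 FPKM. The row matched to CD96, a receptor related to TIGIT, was at 8.38 to 15.7 FPKM with overlap. TNFSF18, the ligand of TNFRSF18, was under the filter, at 0.831 to 1.08 FPKM in the WT libraries and 0.453 to 0.938 FPKM in the others.

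Factors that induce or partner FOXP3 were a list of 45 symbols, of which 37 genes were tested. None was under 0.05 at the unadjusted p in either direction, differences were above 0 for 16 and below 0 for 21 (36.9% of all genes tested were below 0), and the median difference was -0.042. That median turned to 0.025 without Leptin-overexpressing replicate 2 and was -0.085 without Leptin-overexpressing replicate 3. TET2 and TET3, DNA-demethylating enzymes that act on the FOXP3 locus and are named here after their values were seen, both had values without overlap. TET2 was at 19.0, 21.2 and 21.5 FPKM against 15.8, 14.2 and 18.4 FPKM, a difference of -0.34 (limma, unadjusted p = 0.0572). TET3 and JAK1, also named after their values were seen, completed the 3 of 37 genes lower without overlap, against 2.63% of all genes tested. The remaining interleukin-2 and FOXP3 factors kept overlapping labels, among them GATA3 at 26.3 to 41.4 FPKM and BACH2 at 1.86 to 4.72 FPKM.

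Other effector and surface genes of Tregs gave 24 tested genes, 12 with differences above 0 and 12 below, with a median difference of 0.025. That median turned to -0.023 with median-of-ratios scaling and to -0.0031 without Leptin-overexpressing replicate 3, and was 0.092 without WT replicate 2. ENTPD1 (CD39), an enzyme that Tregs use to turn extracellular ATP toward adenosine and that monocytes and B cells also carry, was at 14.4, 12.3 and 9.35 FPKM in the WT libraries. Its values in the Leptin-overexpressing libraries were 7.72, 8.72 and 7.46 FPKM, all below the WT range. The difference was -0.52 with a standard error of 0.18 (limma, unadjusted p = 0.020, adjusted p = 0.993), and -0.37 without both libraries numbered 1. ENTPD1 was the 1 gene of 24 that was lower at the unadjusted p, against 1.19% of all genes tested, and 0 were higher, against 1.98%. IL1R2, a decoy receptor for interleukin-1 singled out after its values were seen, had the largest difference of the list. It was at 23.2 and 26.6 FPKM in WT replicates 1 and 2 but at 1.63 FPKM in WT replicate 3, beside 2.51, 3.82 and 2.89 FPKM in the Leptin-overexpressing libraries (difference -1.58, limma, unadjusted p = 0.0817), so the labels overlapped. A second IL1R2 locus showed the same high pair, at 35.3 and 41.3 FPKM, beside 3.27 FPKM in WT replicate 3.

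**Figure D4:**
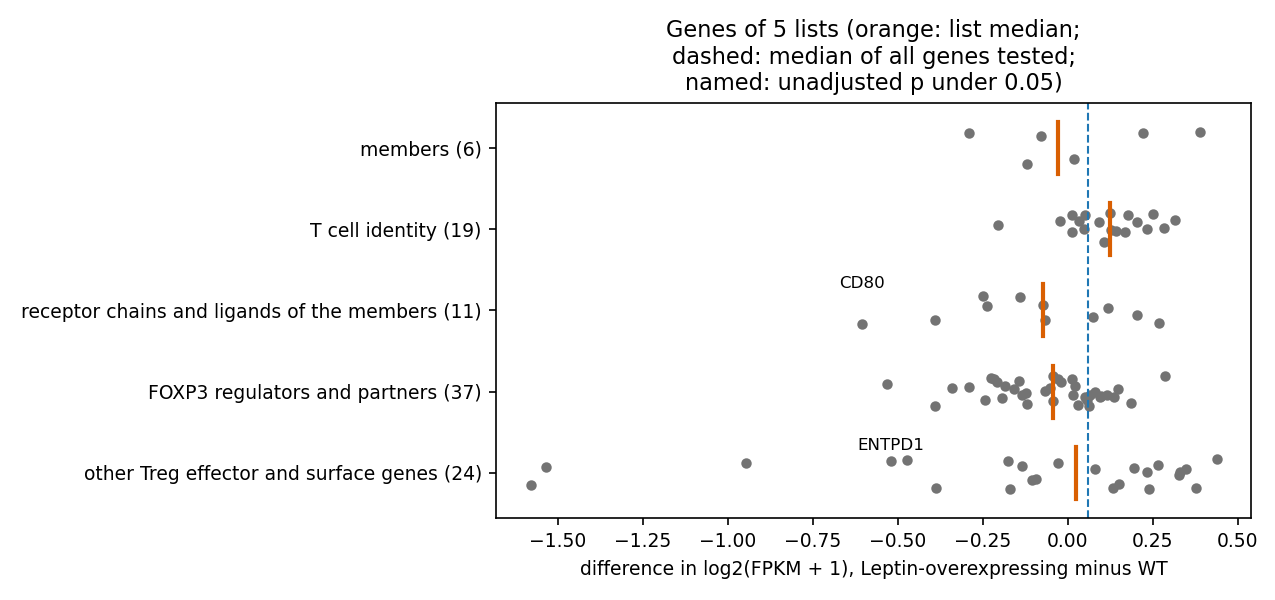
Difference in log2(FPKM + 1), Leptin-overexpressing minus WT, of the genes tested in 5 lists, with the number of genes in brackets and points spread vertically at random. Orange bars are list medians, the dashed line is the median of all genes tested (0.059), and genes with an unadjusted p under 0.05 are named. CD80 (-0.60) and ENTPD1 (-0.52) are the genes named, and T cell identity genes lie mostly to the right, with a median of 0.13.

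Of 19 T cell identity genes tested, 17 had differences above 0 and 2 below, against 36.9% below over all genes tested, none at an unadjusted p under 0.05, with a median difference of 0.13 beside 0.059 over all genes. That median was 0.36 without Leptin-overexpressing replicate 2, 0.22 without WT replicate 1, 0.046 without WT replicate 2, 0.013 without Leptin-overexpressing replicate 1, -0.029 without Leptin-overexpressing replicate 3 and 0.070 without both libraries numbered 1. The summed level was 1480 to 1897 FPKM under the WT label and 1339 to 2240 FPKM under the other, so both the lowest and the highest library were labelled Leptin-overexpressing.

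Last, among genes with a symbol, those whose pattern over the 6 libraries was most like that of FOXP3 were TMEM106B, SLC35B4, SCML1, TMCO3 and MARCH5, with Pearson's r from 0.97 to 0.99 on log2(FPKM + 1). With 6 libraries and 10735 genes to choose from, the highest values of r are large whatever the genes do. TMEM106B, the first of them, was at 6.40, 8.02 and 6.37 FPKM in the WT libraries and at 7.25, 5.61 and 7.26 FPKM in the others. Its order repeats that of FOXP3, with WT replicate 2 highest and Leptin-overexpressing replicate 2 lowest. Among the members, r with FOXP3 was 0.60 for CTLA4 and 0.56 for IKZF2, higher than for 89.6% and 86.8% of the genes tested, 0.15 for ICOS and -0.0087 for IL10. With the CD3 chains it ranged from 0.20 for CD247 to 0.46 for CD3E, and with CD4 it was -0.049. These values are descriptions, and no test was made of them.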

How the data were processed

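Columns of values were assigned to samples through the animal codes, and 0 columns stayed unassigned. The deposited values are FPKM, 1 per gene and library. The methods of the authors name Bowtie, the Ensembl version 75 transcriptome and RSEM for paired-end 101 bp reads. The submitters' processing notes instead name FastQC, STAR 2.5, Cuffnorm and DESeq 1.22.1, so which tools made the FPKM is unsettled. Library kits were strand-specific per the labels. The genome build is not given in the sources used here. The deposited log2 fold changes, p-values and FDR hold the authors' own comparison and were not used.

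The 10735 genes that reached 1 FPKM in 3 or more libraries were fitted with limma 3.58.1 in R 4.3.3 (lmFit and eBayes) on log2(FPKM + 1), genotype label only, two-sided, with Benjamini-Hochberg adjustment. Single ratios were compared by exact permutation over libraries, which cannot go below 0.1 (Python 3.11.15). The fits were tested on simulated data.

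The members and lists were chosen with earlier results of these data known. Named were the members, the CD3 chains, CD4, LEP, the partner genes, genes of other lists with an unadjusted p under 0.05 and no overlap, and the 5 genes with a symbol most like FOXP3; others are said to be chosen after their values or stand as examples of a range. Of 4000 rows without a symbol, 1504 were named through a reference table by identifier. Same-numbered libraries had correlations of -0.28, 0.13 and -0.0073 between their deviations from the group means, so the numbers do not pair them. The alternatives were the pseudocount, the filter, scaling, moderation, a replicate block and libraries left out.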

Additional observations from a re-analysis of the deposited data

How the results depend on the processing

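No member passed an unadjusted or adjusted p under 0.05 in limma in any of the 13 alternative fits. The median difference of the members ranged from -0.20 (without WT replicate 3) to 0.16 (without Leptin-overexpressing replicate 2). The shorter IL2RA locus passed the filter in the second of these settings and not in the first, so the medians are over different rows. It passed in 8 of the 13 alternative fits. The median difference of the receptor chains and ligands ranged from -0.18 (without WT replicate 3) to -0.0013 (without WT replicate 2). Without both libraries numbered 1 the median was -0.075 for the members. In the same setting it was -0.065 for the FOXP3 factors and 0.0079 for the other effector and surface genes of Tregs. The replicate block, whose numbers do not pair the animals, left the difference of FOXP3 at -0.078, gave 216 higher and 168 lower genes at the unadjusted p in place of 213 and 128, and changed no call of a member. Several directions turned, and the cause was not tested. FOXP3 was at 0.13 without WT replicate 2 and at 0.13 without Leptin-overexpressing replicate 2, its lowest value with 1 library left out being -0.22. ICOS was at -0.040 with median-of-ratios scaling, at -0.075 without both libraries numbered 1, and between -0.12 and 0.19 with 1 library left out. IL10 was between -0.27 and 0.072 with 1 library left out, the latter without WT replicate 1, and at 0.085 without both libraries numbered 1. Relative to the CD3 chains, FOXP3 ranged from -0.40 to 0.074 with 1 library left out, the latter without WT replicate 2, IL10 to 0.048 without both libraries numbered 1, the longer IL2RA locus to -0.046 without WT replicate 2 and -0.13 without Leptin-overexpressing replicate 2 (highest with 1 library left out 0.35, and 0.37 without both libraries numbered 1), and the shorter one to -0.048 without Leptin-overexpressing replicate 3 (highest with 1 library left out 0.56). FOXP3 relative to CD4 ranged from -0.63 to 0.048 with 1 library left out, the latter without WT replicate 2, and was at -0.68 without both libraries numbered 1. The median of the members was -0.20 relative to the CD3 chains and -0.11 on that scale without both libraries numbered 1. With CD4 as the denominator the longer IL2RA locus was at -0.030 and the median of the members at -0.33. With CD4 as the denominator and both libraries numbered 1 left out, chosen after seeing the data, that median was -0.52. In that setting the longer locus was at -0.039 and the shorter at -0.13. Over all genes, 213 were higher and 128 lower at the unadjusted p. Median-of-ratios scaling gave 167 and 249, moving the median difference of all genes from 0.059 to 0.0022. Without WT replicate 3 the counts were 608 and 238, without Leptin-overexpressing replicate 1 they were 135 and 112, and without both libraries numbered 1 they were 104 and 138. Depth is unknown, and 3 libraries per label limit the precision.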

Other observations

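Markers of the other blood cells varied between animals within both labels. CD244, a receptor of NK cells and some T cells, was the 1 gene of 8 tested NK cell markers with an unadjusted p under 0.05, against 1.98% of all genes tested that were higher. It was at 16.3, 16.0 and 23.8 FPKM in the WT libraries and at 28.1, 26.3 and 31.2 FPKM in the Leptin-overexpressing libraries, with no overlap (difference 0.60, limma, adjusted p = 0.993). PRF1, which encodes perforin, overlapped at 11.1 to 20.6 and 11.96 to 18.2 FPKM. All 4 neutrophil markers tested had differences below 0 with a median of -0.61, and that median turned to 0.36 without WT replicate 1 and to 0.76 without both libraries numbered 1. The summed level of the neutrophil markers was 3458 FPKM in WT replicate 1 and 358 to 1042 FPKM in the other libraries. Platelet markers summed to 226 to 542.5 FPKM under the WT label and 182 to 499 FPKM under the other.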
